A study of Mus musculus with 6 samples.

Results

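The 37 genes described here are nuclear genes named as subunits of respiratory complex I (NADH:ubiquinone oxidoreductase); 36 encode its subunits, and the protein of the last, Ndufa4, is now assigned to complex IV. They were listed by Ensembl identifier, by a rule that sets no threshold on their values, and all 37 were found among the 16976 identifiers of the deposited table. RNA was measured that came down with an antibody against LARP1 from lysates of freshly collected wild-type mouse dorsal root ganglia (DRG), in which the cell bodies of peripheral sensory neurons lie. The uninjured group had no nerve lesion; the injured group had a sciatic nerve injury, which damages the peripheral axons of many of these neurons. Each group has 3 libraries labelled as replicates, made by nanopore cDNA-PCR sequencing; nothing in the labels says that they came from separate animals. The labels do not give the strain, age or sex of the mice, the time after injury or how many animals went into a lysate.

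Complex I is an L-shaped enzyme of the inner mitochondrial membrane. Its matrix arm takes electrons from NADH and passes them along a chain of iron-sulfur clusters to ubiquinone, and its membrane arm pumps protons that drive ATP synthesis. The core subunits carry out the chemistry, some of them encoded by mitochondrial DNA and the others, including 7 listed here, by nuclear genes; accessory subunits surround them and are needed for assembly or stability. Sensory neurons are long cells that depend on mitochondria along their axons. LARP1 binds RNA and is best known as a partner of mRNAs that begin with a terminal oligopyrimidine tract, a C followed by a run of C and T, which is typical of ribosomal protein mRNAs.

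Uninjured libraries held 116186 to 116608 counts each and injured libraries 211337 to 211879. Within a group, the libraries agreed almost as closely as counting alone allows. For members with a group sum of 15 or more, the variance between libraries was 0.832 times the counting variance in the uninjured group (29 members) and 1.08 times in the injured group (36 members), against 1.16 and 1.12 times for all genes. The 3 libraries were therefore summed to 1 sample per group, and p-values of single members are left out. Levels are CPM, counts per 1000000 counts of a library or group. They are not divided by transcript length, so levels of different genes are not compared, except in a division and a correlation by mean CPM given below as a description. Intervals are exact 95% intervals (Poisson for a level, Clopper-Pearson for a ratio) of the summed counts and cover counting error only. They do not cover spread between animals. Reads of amplified cDNA without molecular identifiers can also repeat a molecule, which the intervals do not allow for. No total RNA or control precipitate was analysed here, so a level is not an enrichment over the tissue, and fewer cells of a type, less RNA per cell and less RNA bound cannot be told apart. Group and any batch in which a group was prepared cannot be told apart either.

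The complex I RNAs did not move as a block. Among the 32 members that passed the filter on low counts, edgeR's quasi-likelihood model, with Benjamini-Hochberg adjusted values under 0.05 counted as calls, put 11 higher and 6 lower in the injured reads and left 15 uncalled. These shares, 34.4% higher and 18.8% lower, stand beside 24.9% higher and 22.1% lower of all 3158 genes tested (47% in either direction). The test compares the reads of 2 samples, not the conditions. Of the 32 members, 9 passed the filter only through the injured libraries, where a gene that passes is high by the filter itself. Of these 9, 7 were called higher (Ndufa1, Ndufa9, Ndufab1, Ndufb2, Ndufb9, Ndufb11 and Ndufs4), Ndufb4 and Ndufv1 were not called, and the 7 calls support no direction of the members. The 23 members that passed in both groups gave 4 higher (Ndufa5, Ndufa10, Ndufa13 and Ndufb8), 6 lower and 13 not called. The shares called among all genes that passed in both groups were not taken, so these counts have no background to be read against. The count of 11 higher members was 6 of 34 tested without the second uninjured library and 7 of 34 without the third. It was 7 of 27 without the first injured library, where Ndufa1, Ndufb9 and Ndufb11 were not tested. Of all genes tested in these fits, 792 of 4241, 820 of 4251 and 647 of 2612 were higher. With an assumed coefficient of variation between animals of 0.2 on the summed counts, 5 members were higher and 1 lower. Beside them stood 305 higher and 176 lower of all 3158 genes tested. With 0.4 no member was called, beside 42 higher and 5 lower of all genes. Both assumed spreads were chosen after seeing the data. Of the 5 higher members at 0.2, Ndufa5 alone passed the filter in both groups, as did the 1 lower member, Ndufa3.

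**Figure D1:**
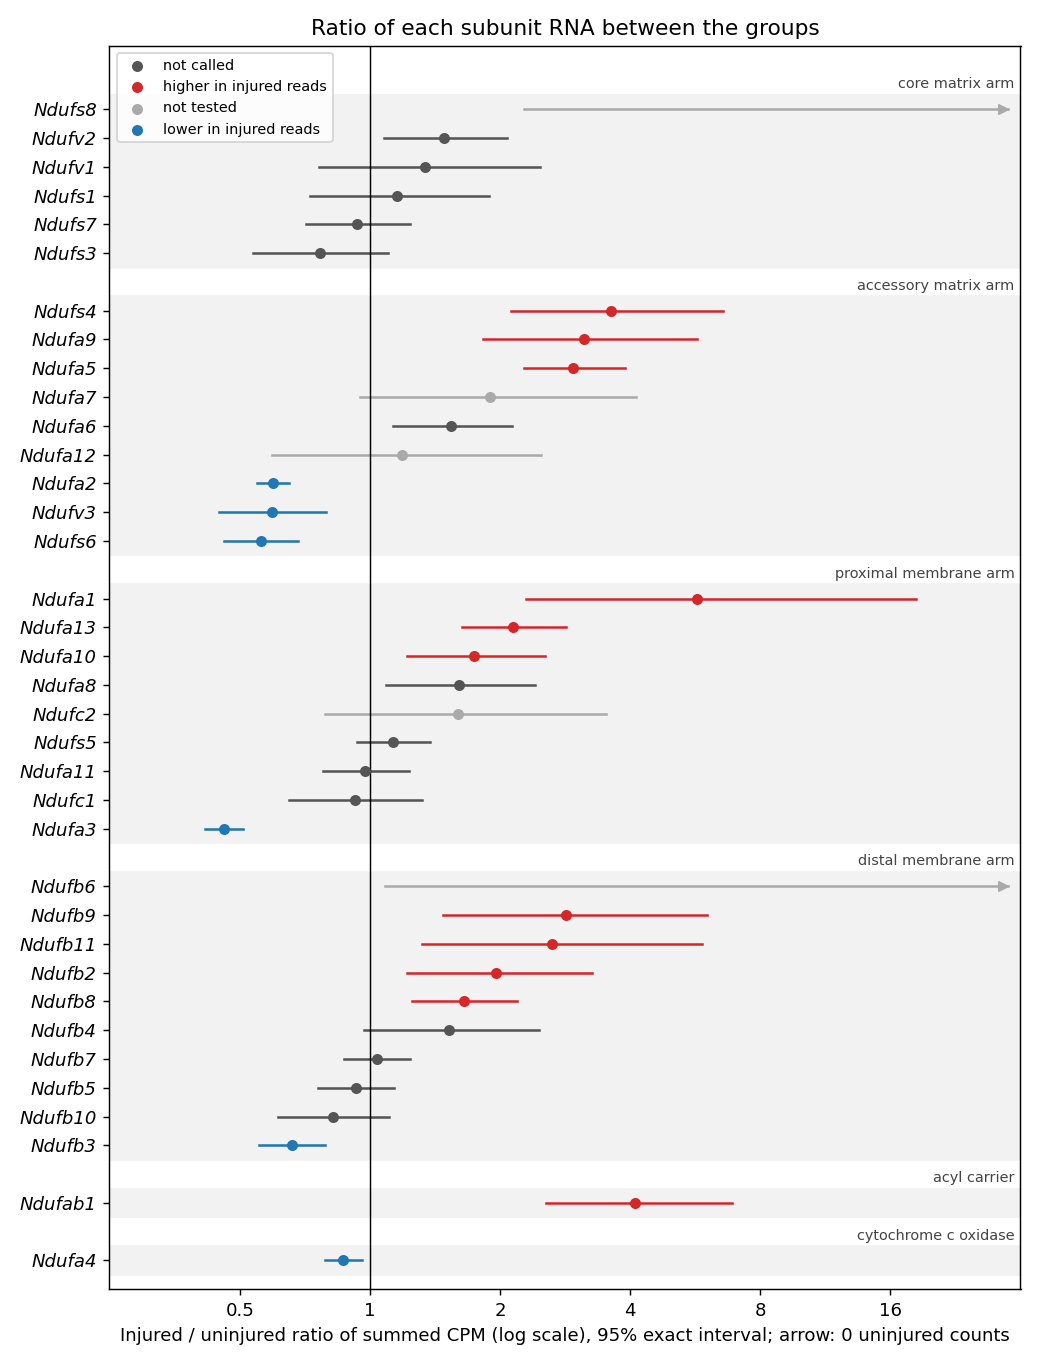
Ratio of injured to uninjured CPM (log scale) for 36 members, summed over the 3 libraries of a group, with exact 95% intervals; colours show the call of the reads test, and arrows mark the 2 members with no uninjured count. The core subunits with an interval closed on both sides are all uncalled, while the accessory subunits spread from 0.460 for Ndufa3 to 5.72 for Ndufa1.

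The ratios give the same mixed picture. Among the 35 members with at least 20 counts over the 6 libraries, the median log2 ratio of injured to uninjured CPM was 0.43, with quartiles of -0.16 and 0.95. Over all 6499 genes with that many counts the median was 0.15, with quartiles of -0.49 and 0.92. The members' median was 0.22 without the third uninjured library and 0.27 without the third injured library. The 35 include the 9 members that passed the edgeR filter only through the injured libraries, all with ratios above 1. The median and the counts of ratios that follow therefore support no direction of the members. A ratio of at least 1.5 with its interval above 1 was found for 13 members (37.1%), beside 24.4% of all genes, and the mirror rule in the lower direction was met by 5 members (14.3%), beside 15.3%. Of the 35 members, 9 had fewer than 20 uninjured counts, and 5 of the 13 higher ones were among them. Every injured library lay above every uninjured one for 16 members (28.5% of all genes) and below for 7 (18.2% of all genes).

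LARP1 is known for pyrimidine-rich RNA starts, so the annotated starts of the members were read from RefSeq (build GRCm38.p6), which held an entry for 33 of the 37. A C within 5 bases of the annotated start, followed by at least 4 bases that are C or T, was found on the transcript strand for 8 of the 33 (24.2%), against 21.2% of all 27025 genes in that table, noncoding genes included. With at least 6 such bases it was 1 member (3.03%), against 7.64%. The 30 bases around the start of 4 members show the range, from the longest tract to none; capitals mark the C and the C or T bases after it, and base 16 is the annotated start.
Ndufb5: gccctccccaCTTCCTTCCgtggccggtgt
Ndufa3: ctcccagagagctccgCTCCTTgtcgccgc
Ndufb11: cccctaagaggcccgCTCTTTagaagcttg
Ndufs6: cgcctgcgccggcacttggtacgacgcgtg
These lie at chr3:32737048-32737077 (plus strand), chr7:3617358-3617387 (plus strand), chrX:20617605-20617634 (minus strand) and chr13:73328468-73328497 (minus strand). Of the 8 members with a tract, 3 were called higher in the injured reads (Ndufa1, Ndufb8 and Ndufb11), 1 lower (Ndufa3) and 4 were not called. Of the 25 without a tract, 7 were higher, 4 lower, among them Ndufs6, 9 not called and 5 not tested. Of all genes tested, 24.9% were higher and 22.1% lower. Ndufa1 and Ndufb11 passed the filter only through the injured libraries. So did Ndufa9, Ndufab1, Ndufb2 and Ndufs4 among the 7 higher members without a tract. Whether calls go with the tract was not tested. Annotated starts can lie some bases from those used in DRG, and no start was measured here.

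A second sequence was looked for in the same 300-base windows (250 bases before to 50 bases after the start). This was GCGCA, any base, then GCGC, on both strands, the core of the sequence bound by nuclear respiratory factor 1 (NRF1), a transcription factor known to act on genes for the respiratory chain. It was present for 7 of the 33 members (21.2%) and for 5.19% of all genes in the table. The 7 were Ndufa5, Ndufa6, Ndufa8, Ndufa11, Ndufb4, Ndufs5 and Ndufs6. The match is shown in capitals for a member that was higher, for one that was not called and for one that was lower, each written along the gene's own strand.
Ndufa5: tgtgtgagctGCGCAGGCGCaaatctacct
Ndufa11: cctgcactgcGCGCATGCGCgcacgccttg
Ndufs6: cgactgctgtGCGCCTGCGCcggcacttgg
Their positions are chr6:24527697-24527726 (minus strand), chr17:56717692-56717721 (plus strand) and chr13:73328479-73328508 (minus strand). In Ndufs6 the letters match on the opposite strand. Of these 3, Ndufa5 had a ratio of 2.95, Ndufa11 of 0.977 and Ndufs6 of 0.561. Of all 7 members with the match, 1 was called higher, 1 lower and 5 were not called. Of the 26 without it, 9 were higher, 4 lower, 8 not called and 5 not tested. Of all genes tested, 24.9% were higher and 22.1% lower. Among the 9, Ndufa1, Ndufa9, Ndufab1, Ndufb2, Ndufb11 and Ndufs4 passed the filter only through the injured libraries. Among the 7, Ndufb4 did so and was not called. Whether calls go with the match was not tested. The letters CCGGAAG, bound by ETS factors such as GABP, were found on either strand for 4 of the 33 (12.1%) and for 9.93% of all genes. A match is a description of the letters and not a measured site.

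The core subunits of the matrix arm showed no called difference. Of the 7, 6 were tested and none was called in either direction, beside 47% of all genes tested; whether these few genes differ from that share was not tested. Their log2 ratios ran from -0.38 to 0.57 with a median of 0.06. Ndufv1, which binds NADH and the flavin where electrons enter, had 68.8, 51.5 and 34.4 CPM in the uninjured and 70.8, 75.7 and 61.5 CPM in the injured libraries. The libraries of the groups overlapped, and the ratio was 1.34 (0.761 to 2.47). Ndufv2, which holds an iron-sulfur cluster beside Ndufv1, had 129, 180 and 155 CPM without and 264, 194 and 232 CPM with injury. Its injured libraries all lay above the uninjured ones and its ratio was 1.49 (1.08 to 2.07), but it was not called by the reads test; it was called higher with library totals alone in place of TMM factors and without the second injured library.

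Ndufs1, the largest subunit and a carrier of several iron-sulfur clusters, had a ratio of 1.16 (0.727 to 1.89). Ndufs7, which holds the last cluster before ubiquinone, had a ratio of 0.936 (0.710 to 1.24). Ndufs3, a subunit of the part of the matrix arm nearest the membrane, had 198, 154 and 129 CPM without and 109, 118 and 142 CPM with injury, and its ratio was 0.766 (0.537 to 1.10). For these 3 genes the libraries of the groups overlapped, and the intervals do not show that the levels were equal. Ndufs8, which holds 2 iron-sulfur clusters, was not tested. It had 0 of the 349027 uninjured counts, and 3 counts in that group, taken as the floor, are 8.60 CPM; it had 23.6, 18.9 and 37.8 CPM in the injured libraries. Against this floor the injured level was at least 3.12-fold higher; the exact interval of the ratio, which also counts the error of the uninjured 0, started at 2.27. It was called higher when no filter was used.

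The accessory subunits of the matrix arm held calls in both directions. Of these 9 genes, 7 were tested; 3 were higher (Ndufs4, Ndufa9, Ndufa5), 3 lower (Ndufs6, Ndufv3, Ndufa2) and 1 was not called (Ndufa6), beside 24.9% higher and 22.1% lower of all genes tested. Ndufs4 and Ndufa9 passed the filter only through the injured libraries; the 5 members that passed in both groups gave 1 higher and 3 lower. Ndufs4 (ENSMUSG00000021764), whose loss in mice gives a severe complex I deficiency, had 68.8, 25.7 and 43.0 CPM in the uninjured and 156, 156 and 184 CPM in the injured libraries. The groups did not overlap, and the ratio was 3.61 (2.12 to 6.55). Ndufa9, at the junction of the arms and related to short-chain dehydrogenases, had 51.6, 42.9 and 43.0 CPM without and 137, 132 and 161 CPM with injury, a ratio of 3.13 (1.83 to 5.70). Both rest on 16 uninjured counts each.

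Ndufa5 (ENSMUSG00000023089) is the higher member of the matrix arm with the most counts. Its level was 206, 172 and 207 CPM in the uninjured and 533, 568 and 624 CPM in the injured libraries. The lowest injured library was above the highest uninjured one by more than either group's range, and the ratio of the summed groups was 2.95 (2.27 to 3.88). Ndufa6, which binds an acyl carrier protein, had 94.6, 197 and 198 CPM without and 245, 317 and 194 CPM with injury. One injured library lay within the uninjured range, and the ratio was 1.54 (1.13 to 2.13); it was called higher with library totals alone and without the third injured library. Ndufa7 and Ndufa12 were not tested for low counts; their ratios were 1.90 (0.952 to 4.12) and 1.18 (0.594 to 2.49).

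In the other direction, Ndufs6 (ENSMUSG00000021606), a zinc-binding subunit placed late in assembly, had 559, 549 and 689 CPM without and 269, 412 and 326 CPM with injury. The groups did not overlap, and the level without injury was 1.78 times that with injury (1.47 to 2.17). Ndufv3, a small subunit at the tip of the arm beside Ndufv1 and Ndufv2, had 267, 283 and 293 CPM without and 208, 166 and 128 CPM with injury. Its level without injury was 1.68 times that with injury (1.26 to 2.23). Ndufa2 (ENSMUSG00000014294), a small subunit with a thioredoxin-like fold bound to Ndufs1, had 2960, 3002 and 3150 CPM in the uninjured and 1798, 1841 and 1812 CPM in the injured libraries. The level without injury was 1.67 times that with injury (1.54 to 1.82), and with 1060 and 1153 counts in the groups this ratio is among the best resolved of the members.

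**Figure D2:**
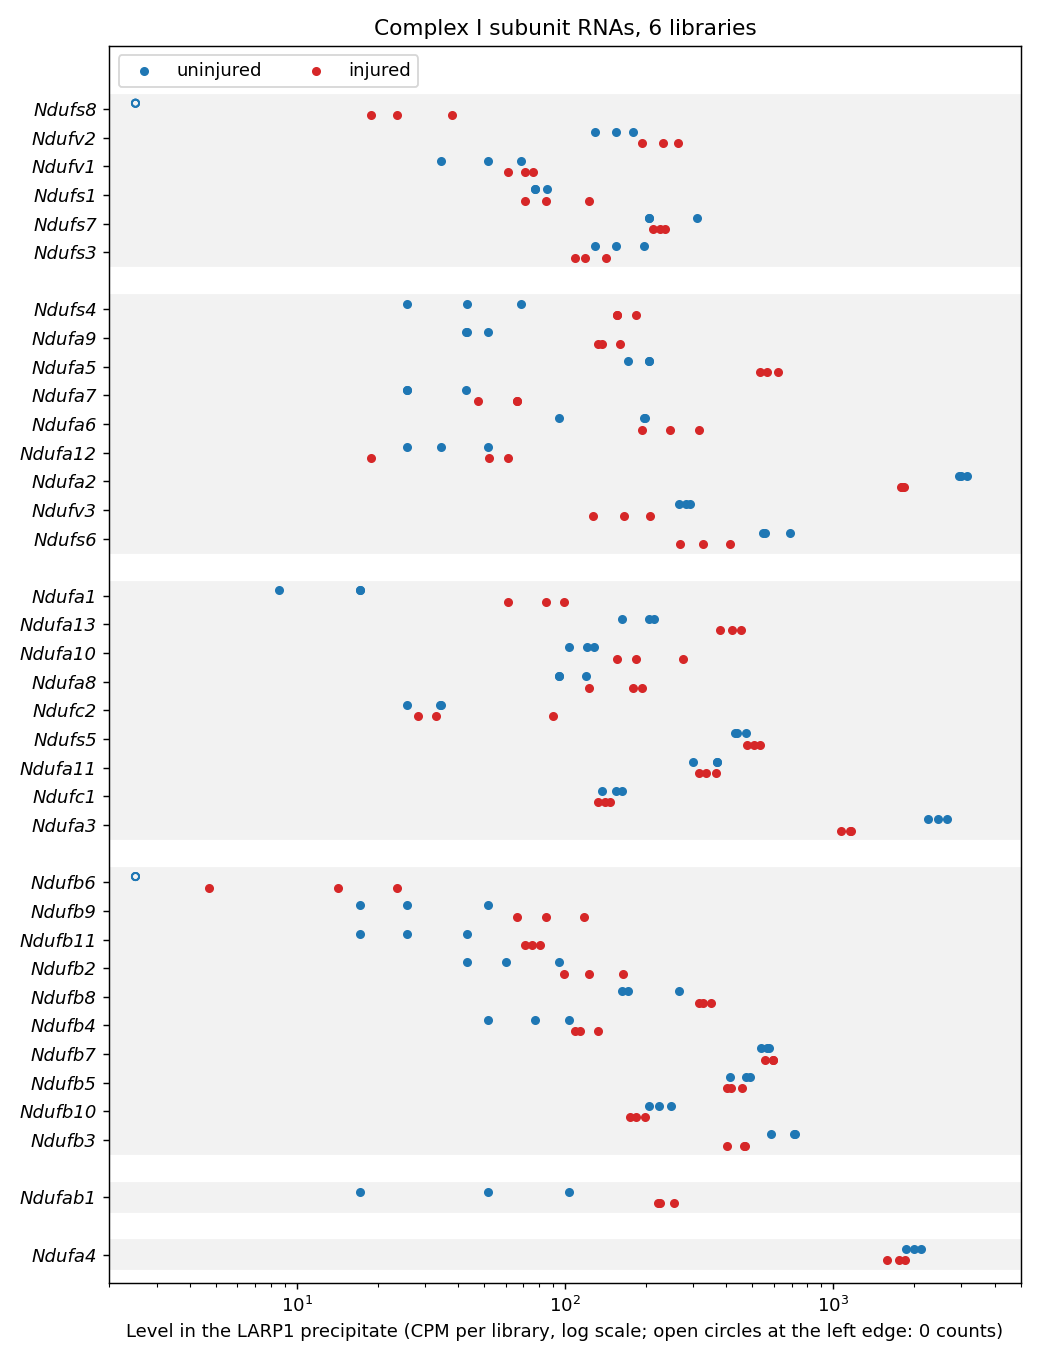
CPM of 36 members in each of the 6 libraries on a log scale, uninjured in blue and injured in red, in shaded blocks from top to bottom for the core matrix arm, accessory matrix arm, proximal membrane arm, distal membrane arm, Ndufab1 and Ndufa4; open circles mark 0 counts. Libraries of a group lie close together, and Ndufa5, Ndufa13 and Ndufs4 separate to the right with injury while Ndufa2, Ndufa3 and Ndufs6 separate to the left.

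The accessory subunits of the proximal membrane arm, the part next to the matrix arm, gave 3 higher and 1 lower call among 8 tested of 9, or 37.5% and 12.5%, beside 24.9% and 22.1% of all genes tested. Without Ndufa1, which passed the filter only through the injured libraries, it was 2 higher and 1 lower of 7. Ndufa1 (ENSMUSG00000016427), a small subunit with a single membrane helix encoded on the X chromosome, had the highest ratio of the members with counts in both groups. Its level was 17.2, 8.58 and 17.2 CPM without and 61.4, 99.4 and 85.1 CPM with injury. The groups did not overlap, but only 5 uninjured counts lie behind the ratio of 5.72, whose interval of 2.30 to 18.4 is correspondingly wide. Leaving out any 1 injured library took it out of the genes tested. Ndufa13 (ENSMUSG00000036199), also known as GRIM-19, a subunit near the ubiquinone site, had 163, 206 and 215 CPM without and 420, 379 and 454 CPM with injury, a ratio of 2.14 (1.64 to 2.84).

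Ndufa10, a subunit related to nucleoside kinases, had 120, 129 and 103 CPM without and 184, 274 and 156 CPM with injury. The ratio was 1.74 (1.22 to 2.54). The call was lost without any 1 of the uninjured libraries and without the second injured library, whose value was the highest. It was also lost in DESeq2 and without a filter. Ndufa8, a disulfide-bridged protein of the intermembrane space, was not called at a ratio of 1.60 (1.09 to 2.41), and was called higher with library totals alone and without the second injured library. Ndufa3 (ENSMUSG00000035674), a small membrane subunit, was the member with the lowest ratio. Its level was 2263, 2461 and 2651 CPM in the uninjured and 1166, 1069 and 1159 CPM in the injured libraries. The lowest uninjured library was well above the highest injured one, and the level without injury was 2.17 times that with injury (1.97 to 2.40). It was the single member still lower with an assumed coefficient of variation of 0.2.

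The other members of the proximal arm were close to a ratio of 1 or thinly counted. Ndufs5, a twin-cysteine protein of the intermembrane space, had a ratio of 1.13 (0.932 to 1.38), Ndufa11 of 0.977 (0.779 to 1.23) and Ndufc1 of 0.924 (0.650 to 1.32). Ndufc2 had 25.8, 34.3 and 34.4 CPM without and 33.0, 28.4 and 89.9 CPM with injury. The last of its injured libraries stood apart from the other two, it was not tested, and its ratio was 1.60 (0.786 to 3.52).

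The distal membrane arm, which the subunits named Ndufb surround, gave 4 higher and 1 lower call among 9 tested of 10, or 44.4% and 11.1%, beside 24.9% and 22.1% of all genes tested. Of the higher ones, Ndufb2, Ndufb9 and Ndufb11 passed the filter only through the injured libraries; the 5 members that passed in both groups gave 1 higher and 1 lower. Ndufb8, a subunit often used on blots as a marker of assembled complex I, had 267, 172 and 164 CPM in the uninjured and 349, 326 and 317 CPM in the injured libraries. The groups did not overlap and the ratio was 1.65 (1.25 to 2.19); the call was lost without the second or the third uninjured library. Ndufb9, which binds an acyl carrier protein, had 51.6, 25.7 and 17.2 CPM without and 118, 66.2 and 85.1 CPM with injury, a ratio of 2.85 (1.48 to 6.03). Ndufb11, encoded on the X chromosome, had 25.8, 17.2 and 43.0 CPM without and 75.5, 80.4 and 71.0 CPM with injury, a ratio of 2.64 (1.32 to 5.85). These 2 genes had 11 and 10 uninjured counts, and each kept its call in 1 of the 6 fits that left out a library: Ndufb9 in the fit without the first uninjured library and Ndufb11 in the fit without the third. In the fits without an injured library neither gene passed the filter, so neither was tested there. Both calls were also lost in DESeq2 and limma-voom. Ndufb2 had a ratio of 1.96 (1.22 to 3.26), and its call was lost without the second uninjured, the third uninjured or the first injured library. Its call was also lost in DESeq2, in limma-voom and without a filter.

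Ndufb3 (ENSMUSG00000026032), a small membrane subunit, was the lower one. It had 723, 712 and 585 CPM in the uninjured and 401, 468 and 464 CPM in the injured libraries. The groups did not overlap, and the level without injury was 1.52 times that with injury (1.27 to 1.81). Ndufb7, a twin-cysteine protein facing the intermembrane space, had 568, 540 and 577 CPM without and 595, 596 and 558 CPM with injury. The libraries overlapped and its ratio of 1.04 had an interval of 0.871 to 1.24. Ndufb5 and Ndufb10 were not called at ratios of 0.928 (0.760 to 1.14) and 0.821 (0.613 to 1.11), nor was Ndufb4 at 1.53 (0.972 to 2.47). Ndufb6 was not tested: it had no uninjured count and 4.72, 14.2 and 23.7 CPM in the injured libraries, at least 1.65-fold higher against the floor, and the exact interval of the ratio started at 1.09.

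A pair of members stands apart by role. Ndufab1 (ENSMUSG00000030869) is the mitochondrial acyl carrier protein, which is part of both arms and also serves mitochondrial fatty acid and lipoic acid synthesis. Its level was 103, 51.5 and 17.2 CPM in the uninjured and 255, 222 and 227 CPM in the injured libraries. The groups did not overlap, and the ratio was 4.10 (2.56 to 6.90); without the first uninjured library, whose level was the highest of its group, it was 6.83. Its uninjured libraries differed by more than counting noise at a chi-square threshold of 0.05, the single case among 29 members, against 6.32% of all genes; in the injured group it was 4 of 36 members (Ndufa6, Ndufa10, Ndufc2 and Ndufs6), against 6.08%. Ndufa4 (ENSMUSG00000029632) is named as a complex I gene but its protein is now assigned to cytochrome c oxidase, complex IV. It had 1996, 2135 and 1868 CPM without and 1595, 1760 and 1859 CPM with injury. The highest injured library nearly reached the lowest uninjured one, and the level without injury was 1.15 times that with injury (1.05 to 1.27). It was called lower, but not with library totals alone, without a filter, in DESeq2 or without the first injured library.

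The summed level of the 37 RNAs was lower after injury, and the single ratios lay on both sides of 1. The sum was 13475 CPM without injury (13092 to 13865), or 1.35% of all counts, and 11818 CPM with injury (11552 to 12089), or 1.18%, a ratio of 0.877 (0.846 to 0.910). The libraries lay from 13284 to 13607.5 CPM in the uninjured and from 11573 to 12001 CPM in the injured group, without overlap. Of the 35 ratios, 22 were above 1 and 13 below (62.9% above, against 56.5% of all genes). The 22 include the 9 members that passed the edgeR filter only through the injured libraries, so their number supports no direction. The sum rests on Ndufa2, Ndufa3 and Ndufa4, the 3 members with the most counts. Together they held 55.6% of the members' counts without injury (95% Wilson interval 54.2% to 57.0%) and 39.7% with injury (38.6% to 40.8%). Their summed level was 7495 CPM without and 4686 CPM with injury, 1.60 times higher without injury (1.52 to 1.69). The other 34 members went the opposite way, from 5979 to 7132 CPM, a ratio of 1.19 (1.13 to 1.26). This split was made after seeing the data. The 34 include the same 9 members, all with ratios above 1, so the rise of their sum supports no direction either.

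**Figure D3:**
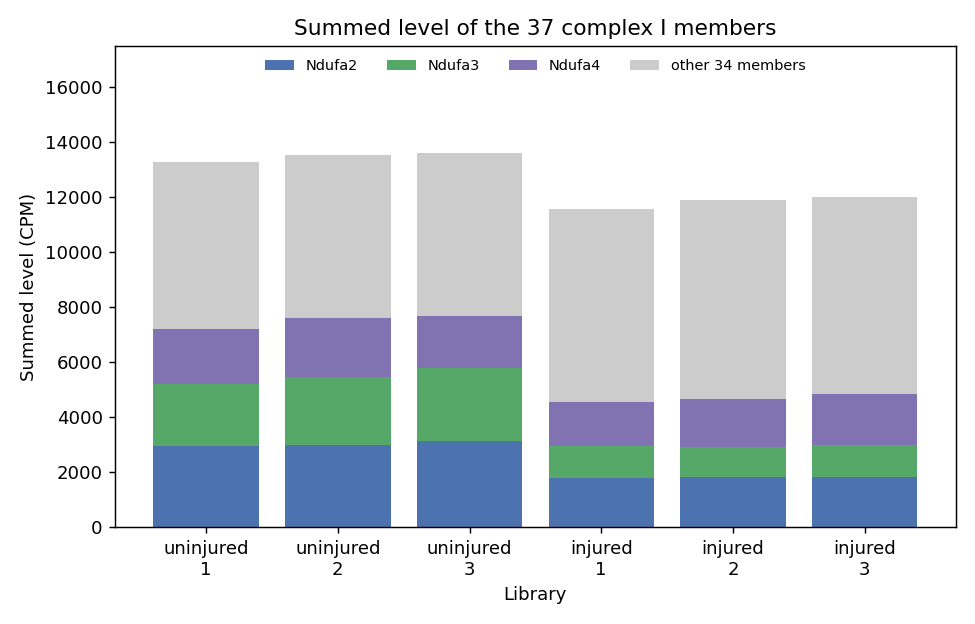
Summed CPM of the members in each library (bars from 0), divided into Ndufa2, Ndufa3, Ndufa4 and the other 34 members. The 3 named genes shrink from 7495 to 4686 CPM between the groups while the rest goes from 5979 to 7132 CPM, and the libraries of a group look alike. The rest includes the 9 members that passed the edgeR filter only through the injured libraries.

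A related pattern appears when members are divided at a mean of 200 CPM, a division made after seeing the data. The 16 members at or above it had a median log2 ratio of -0.10, beside 0.03 for 899 genes at that level. The 19 members below it had a median of 0.68, beside 0.19 for 5600 genes. The 19 include all 9 members that passed the edgeR filter only through the injured libraries, each with a ratio above 1. Neither this median nor the correlation that follows therefore supports a direction. Across the 35 members, the Spearman correlation of log2 ratio and mean CPM was -0.54; across 6363 genes it was -0.16. Points share the same 6 libraries, the 2 measures share the same counts, and thinly counted genes entered more easily through the deeper injured libraries, so this is a description. Mean CPM is not divided by transcript length and orders genes by their counts only.

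Some counts are uncertain because reads can be shared with similar or overlapping genes, which the estimation divides. RefSeq lists a copy or pseudogene under the name of 6 members: Ndufa11, Ndufa12, Ndufab1, Ndufb4, Ndufs5 and Ndufs6. Another annotated gene overlaps 10 members, among them Ndufa1, Ndufa2, Ndufa9, Ndufa13 and Ndufb11. The share of reads concerned was not tested.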

How the data were processed

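The authors deposited estimated counts for each Ensembl gene identifier, without normalization. The submitters' processing notes name minimap2, Salmon and GRCm39 (mm39); tool versions, settings and the annotation release are not stated there. All values were whole numbers, so rounding changed none; 0 rows named no gene and 0 columns were left unused. Symbols of the members came with the list of identifiers; other genes were not paired with symbols here, so assembly factors, mitochondrially encoded subunits, other complexes and cell type markers were not analysed here. Members and lists were chosen with earlier results of these data known.

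Groups and replicate numbers came from the sample titles. Levels are CPM of full library totals; a group at 0 was set to a floor of 3 counts. edgeR 4.0.16 (R 4.3.3) was fitted to all genes of the 6 libraries with filterByExpr and TMM factors (0.960 to 0.965 uninjured, 1.04 injured). Benjamini-Hochberg adjustment was made over all genes tested. The fit was also run on simulated data with the spread between libraries of a group, a coefficient of variation of 3.57%. That run says nothing about false calls under spread between animals. CPM ratios lay 0.07 above the TMM scale in log2. Depth limits precision: 3 counts are 8.60 CPM in the uninjured and 4.73 CPM in the injured group. The 15 genes described in full were those with ratios farthest from 1 (up to 8 per direction, interval excluding 1, at least 20 counts), the 4 with the most counts, and Ndufa4 and Ndufab1; the others are given more briefly, and 1 member is counted in totals but not reported here by itself. Alternatives were limma-voom (limma 3.58.1), DESeq2 1.42.0, other scalings and filters, a replicate block, leaving out each library and assumed spreads.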

Additional observations from a re-analysis of the deposited data

How the results depend on the processing

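The 11 higher and 6 lower members became 7 and 5 with DESeq2, 5 and 1 with an assumed coefficient of variation of 0.2, and 0 and 0 with 0.4. Over all genes, 786 higher and 699 lower of 3158 tested became 752 and 574 of 9387 with DESeq2. They became 305 and 176 of 3158 with 0.2, and 42 and 5 with 0.4. DESeq2 tested 36 members in place of 32. Of the 5 higher members at 0.2, Ndufa5 alone passed the filter in both groups. Leaving out 1 library gave 6 to 9 higher and 5 to 6 lower of 27 to 34 members tested. Beside these stood 638 to 836 higher and 582 to 756 lower of 2603 to 4251 genes tested. The replicate block gave 11 and 6 members, beside 750 and 677 of 3158 genes. Injured and uninjured libraries of the same number share only that number: over 2976 genes, their deviations from the group means had correlations of 0.0389, -0.0063 and -0.0506. Under 13 alternatives other than the assumed spreads, 2 higher (Ndufa5, Ndufa13) and 4 lower (Ndufa2, Ndufa3, Ndufb3, Ndufs6) of the 10 called members that passed the filter in both groups kept their call, and 0 of the 10 were called in the opposite direction. Ndufa9, Ndufab1 and Ndufs4 also kept theirs, but passed the filter only through the injured libraries, so this says nothing about stability. All these alternatives reuse the reads of 1 sample per group, so a kept call does not show stability between animals. Of Ndufa5, Ndufa13, Ndufa2, Ndufa3, Ndufb3 and Ndufs6, only Ndufa5 and Ndufa3 kept their call with an assumed coefficient of variation of 0.2. Library totals alone moved the median of all tested genes from 0.01 to 0.12 in log2 and gave 14 higher and 5 lower members, beside 927 and 610 of 3158 genes. The members' median log2 ratio was 0.22 to 0.55 over the fits without 1 library. The ratio of the summed level was 0.833 on the TMM scale, and 1.19, in the opposite direction, without the 3 members with the most counts. That remainder includes the members that passed the filter only through the injured libraries, so it supports no direction. A fold of 2 in place of 1.5 left 8 of 13 higher and 1 of 5 lower members. With at least 6 pyrimidines 1 member in place of 8 had a start tract; the cause of these differences was not tested beyond the stricter rule itself. All 135 ratios of the 15 genes described in full, over 9 alternatives each, stayed within the interval of the reported value. The ratio of Ndufab1 without the first uninjured library, 6.83, lay close to its upper end. The alternatives rescale or leave out part of the same reads, so this outcome was nearly given in advance and says nothing about spread between animals. Differences within the printed intervals were not detectable at this depth.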
